A study of Drosophila melanogaster with 18 samples.

Results

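The 4 genes described here, ninaD, Smvt, Ctr1B and hgo, encode a carotenoid receptor, a vitamin transporter, a copper transporter and an enzyme of tyrosine breakdown. They were found by their symbols in the array's annotation, where each has 1 probe set, among 2249 distinct symbols. The genes ninaD and hgo lie on chromosome arm 2L, and Smvt and Ctr1B on 3R. They were picked from their differences between larvae without a GAL4 driver: UAS-3L* G20* against UAS-3L G1, with UAS-3L G5 beside them. The levels of these genes in those 3 groups, and in the w1118 strain, which also has no driver, are therefore given as a description with no test. Tests of the 4 genes are kept to the 5 comparisons among Tub-3L groups.

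The study asked how transcription changes when DNMT3L, a mammalian regulator of DNA methylation, is expressed in Drosophila generation after generation. RNA of whole larvae of the third instar was hybridised to Affymetrix Drosophila Gene ST arrays, 18 arrays in 9 groups of 2, each array from its own pool of larvae. Tub-3L larvae carry the DNMT3L transgene under GAL4 sites together with the Tubulin-GAL4 driver, which is active in most cells, and come from 1 transgenic line bred by self-crossing. They were sampled in G1, G2, G4 and G5, and Tub-3L G5P larvae are those of G5 that had melanotic tumors. UAS-3L* G20* larvae carry the transgene after the driver had been removed. The labels place this group both at G20* and at the fifth generation, so its generation is uncertain. UAS-3L G5 and UAS-3L G1 larvae carry the transgene without driver, and w1118 is the strain that was injected to make the lines, with neither transgene nor driver.

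Drosophila cannot make carotenoids, and takes them from food for the synthesis of vitamin A and of the visual pigment. Scavenger receptors of class B, such as ninaD, carry them across the membrane of gut and other cells. Copper enters cells through the Ctr1 transporters, of which Ctr1B serves the larval gut, and metallothioneins bind the metal inside. Surplus tyrosine and phenylalanine are broken down to fumarate and acetoacetate, a route in which hgo (homogentisate dioxygenase) opens the ring and Faa (fumarylacetoacetase) makes the last cut. The role of Smvt is known from mammals, where the sodium-dependent multivitamin transporter takes up biotin, pantothenate and lipoate.

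Values are log2 signals normalised by RMA, the standard summary of Affymetrix probes, so a difference of 1 is a 2-fold change. Signals of different probe sets are not on a common scale, so genes are not ranked by level, and sums over a list are led by its brightest probe sets. Duplicate arrays correlated at r between 0.98963 and 0.99434 over all probe sets, and array medians lay between 6.17 and 6.39. The 6 salivary glue genes, which the salivary glands express from the middle of the third instar, had a summed linear signal of 87.8 to 90.1 in Tub-3L G5P, 3448 to 3847 in Tub-3L G5, 4452 to 4583 in Tub-3L G4, 13148 to 13275 in Tub-3L G2 and 19999 to 20685 in Tub-3L G1. In the 4 groups without driver that sum was 17247 to 22705. In whole larvae, fewer cells of a type and less RNA per cell cannot be told apart.

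Along the Tub-3L generations, ninaD and Ctr1B ended lower and hgo higher in G5 than in G1, and Smvt ended near its first level. All 4 genes had lower signals in Tub-3L G5P than in Tub-3L G5, and 3 of these differences passed the test. In that comparison 52.7% of all probe sets passed, 26.4% higher and 26.3% lower. In the test, limma was fitted to all 18 arrays with p-values adjusted over 16322 probe sets. A difference passed at an adjusted p under 0.05 and was called where it was also at least 2-fold.

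The carotenoid receptor ninaD spanned 24.0-fold between its highest and lowest group means, from w1118 to Tub-3L G5P. Its log2 signals on the Tub-3L arrays were 7.25 and 7.32 at G1, 5.58 and 5.70 at G2, 5.78 and 5.51 at G4, 5.43 and 5.35 at G5, and 3.77 and 4.36 at G5P. Without driver they were 6.38 and 6.10 in UAS-3L* G20*, 6.28 and 6.19 in UAS-3L G5, 7.95 and 8.07 in UAS-3L G1, and 8.73 and 8.57 in w1118. Both w1118 arrays exceeded all others, both G5P arrays lay below all others, and the G2 and G4 arrays overlapped. The pair in G5P lay about the lower quartile of the signals on those arrays, which was 4.16 and 4.19, so these are dim signals.

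The vitamin transporter Smvt spanned 6.21-fold between the same extreme groups. Its log2 signals on the Tub-3L arrays were 6.04 and 6.27 at G1, 7.07 and 6.95 at G2, 6.64 and 6.82 at G4, 6.32 and 6.38 at G5, and 5.43 and 5.71 at G5P. Without driver they were 6.06 and 5.64 in UAS-3L* G20*, 6.09 and 5.79 in UAS-3L G5, 7.60 and 7.61 in UAS-3L G1, and 8.28 and 8.13 in w1118. The lowest 4 groups in this order, Tub-3L G1, UAS-3L G5, UAS-3L* G20* and Tub-3L G5P, each overlapped the next. The w1118 and UAS-3L G1 arrays stood above every Tub-3L array.

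The copper transporter Ctr1B spanned 11.8-fold and was the most even of the 4 genes between duplicates, whose largest gap was 0.14 on the log2 scale. Its log2 signals on the Tub-3L arrays were 10.26 and 10.29 at G1, 9.91 and 9.77 at G2, 9.48 and 9.51 at G4, 8.65 and 8.79 at G5, and 7.21 and 7.21 at G5P. Without driver they were 10.81 and 10.75 in UAS-3L* G20*, 10.81 and 10.68 in UAS-3L G5, 9.63 and 9.56 in UAS-3L G1, and 10.71 and 10.66 in w1118. No array of one Tub-3L group overlapped another. Each later generation was lower, and G5P was lower than G5, which is of the same generation. UAS-3L G1 stood apart from the other groups without driver, between Tub-3L G2 and Tub-3L G4.

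The ring-opening enzyme hgo spanned 7.44-fold, with its highest mean in Tub-3L G4 and its lowest in UAS-3L* G20*. Its log2 signals on the Tub-3L arrays were 6.35 and 5.89 at G1, 7.79 and 7.59 at G2, 7.75 and 7.80 at G4, 6.97 and 6.95 at G5, and 6.65 and 6.56 at G5P. Without driver they were 4.84 and 4.93 in UAS-3L* G20*, 5.38 and 5.21 in UAS-3L G5, 6.62 and 6.39 in UAS-3L G1, and 7.12 and 7.36 in w1118. The UAS-3L* G20* and UAS-3L G5 arrays were lower than all others. G2 overlapped G4, and G5P overlapped UAS-3L G1.

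**Figure D1:**
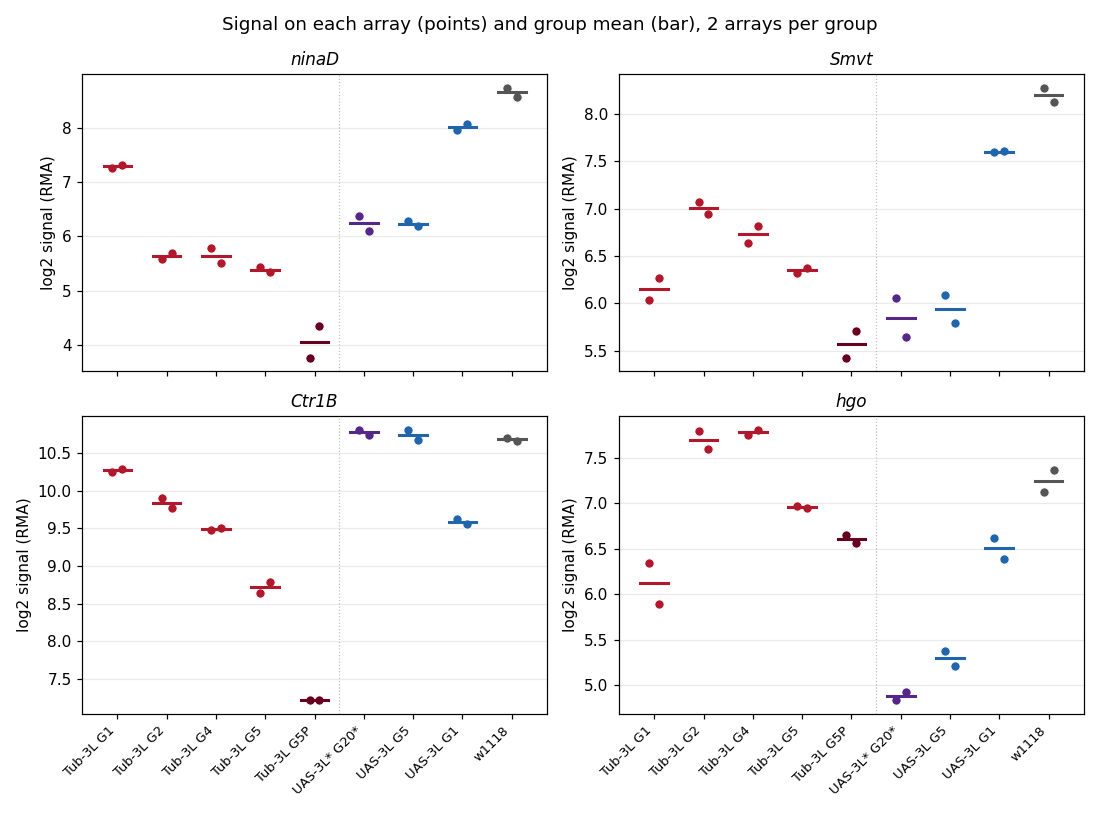
Log2 signal of ninaD, Smvt, Ctr1B and hgo (vertical axes, RMA) on each of the 2 arrays per group (points) with the group mean (bar), Tub-3L groups left of the dotted line and larvae without driver right of it. Ctr1B steps down in each Tub-3L group to 7.21 in G5P, ninaD is lowest in G5P, and hgo is highest in Tub-3L G2 and G4 and lowest in UAS-3L* G20*.

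Among larvae without driver, the differences that led to the choice of these genes ran the same way in both later groups. UAS-3L* G20* minus UAS-3L G1 was −1.77 for ninaD, −1.75 for Smvt, 1.19 for Ctr1B and −1.62 for hgo on the log2 scale. In that contrast 1.66% of all probe sets were called. UAS-3L G5 minus UAS-3L G1 was −1.78 for ninaD, −1.66 for Smvt, 1.15 for Ctr1B and −1.21 for hgo. These contrasts share the UAS-3L G1 arrays.

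Set against each other, the 2 later groups were close. UAS-3L* G20* minus UAS-3L G5 was 0.01 for ninaD (SE 0.17), −0.09 for Smvt (SE 0.15) and 0.03 for Ctr1B (SE 0.0835), with overlapping arrays. For hgo it was −0.42 (SE 0.15), with no overlap. The w1118 strain had higher signals than UAS-3L G1 for all 4 genes, by 0.64 for ninaD, 0.60 for Smvt, 1.09 for Ctr1B and 0.74 for hgo. For Ctr1B alone the difference from UAS-3L G1 thus had the same sign in w1118 and in both later groups without driver.

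Against the same UAS-3L G1 arrays, the Tub-3L differences for ninaD were −0.72 at G1, −2.37 at G2, −2.36 at G4, −2.62 at G5 and −3.95 at G5P. For Smvt they were −1.45, −0.59, −0.87, −1.25 and −2.03 in the same order, all negative. For Ctr1B they were 0.68, 0.25, −0.10, −0.87 and −2.38, and for hgo −0.39, 1.19, 1.27, 0.45 and 0.10. Against UAS-3L G5, of the same generation number, Tub-3L G5 differed by −0.84 for ninaD, −2.03 for Ctr1B, 0.41 for Smvt and 1.66 for hgo. The choice of control generation therefore turned the sign of the Tub-3L G5 difference for Smvt only.

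From the first to the second generation of DNMT3L expression all 4 genes passed the test, 2 in each direction. In Tub-3L G2 against G1, ninaD was 3.13-fold lower (log2 difference −1.64, SE 0.17, limma adjusted p = 2.14e-05), and hgo was 2.98-fold higher (1.58, SE 0.15, limma adjusted p = 9.98e-06). Smvt was 1.81-fold higher (0.86, SE 0.15, limma adjusted p = 0.00128), and Ctr1B differed by −0.44 (SE 0.0835, limma adjusted p = 0.00188). Thus 2 of 4 were called in a comparison that called 5.11% of all probe sets, and 4 of 4 passed where 32.9% of all did, 16.0% higher and 16.9% lower. In a fit of these 2 groups alone Ctr1B did not pass (limma adjusted p = 0.053).

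The next step was smaller. In Tub-3L G4 against G2 none of the 4 genes was called by limma, where 9.77% of all probe sets were, and Ctr1B alone passed (−0.35, SE 0.0835, limma adjusted p = 0.00669), among 34.4% of all, 16.0% higher and 18.4% lower. The differences of the other 3 were 0.01 for ninaD, −0.28 for Smvt and 0.08 for hgo, with limma adjusted p of 0.983, 0.189 and 0.711. Ctr1B did not pass in a fit of the 2 groups alone (limma adjusted p = 0.0532) or without Tub-3L G2 replicate 1 (limma adjusted p = 0.0678).

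In Tub-3L G5 against G4, Ctr1B was 1.71-fold lower (−0.77, limma adjusted p = 3.01e-05) and hgo 1.76-fold lower (−0.82, limma adjusted p = 0.00172). The differences of ninaD (−0.26, limma adjusted p = 0.311) and Smvt (−0.38, limma adjusted p = 0.0977) did not pass, although after quantile normalisation Smvt did (−0.46, limma adjusted p = 0.0467). None of the 4 genes was called, against 4.66% of all probe sets, and 2 passed, both lower, against 24.6% (13.9% higher and 10.7% lower).

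Over the whole course, Tub-3L G5 against G1, Ctr1B was 2.94-fold lower (−1.56, limma adjusted p = 1.14e-08) and ninaD 3.72-fold lower (−1.89, limma adjusted p = 1.16e-06). The enzyme gene hgo was 1.79-fold higher (0.84, limma adjusted p = 0.000361), but did not pass in a t-test on these arrays alone (unadjusted p = 0.067). Smvt differed by 0.19 (SE 0.15, limma adjusted p = 0.31), its rise into G2 having been followed by lower values. The 2 called genes stand beside 22.7% of all probe sets called, and the 3 that passed beside 56.3% (29.4% higher and 26.9% lower), so changes of this kind were common between these groups.

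Larvae with melanotic tumors were next set against those of the same generation. In Tub-3L G5P against Tub-3L G5, Ctr1B was 2.84-fold lower (−1.50, limma adjusted p = 6.43e-08), ninaD 2.51-fold lower (−1.33, limma adjusted p = 5.02e-05) and Smvt 1.72-fold lower (−0.78, limma adjusted p = 0.00116). For hgo the difference was −0.35 (SE 0.15, limma adjusted p = 0.0619). It passed in a fit of the 2 groups alone (limma adjusted p = 0.0365) but not with centring (−0.22, limma adjusted p = 0.246). After quantile normalisation ninaD differed by −0.96 (limma adjusted p = 0.000877), short of 2-fold. The 2 called genes stand beside 13.4% of all probe sets called, and the 3 that passed, all lower, beside 52.7% (26.4% higher and 26.3% lower). The glue sums given above were also far lower in Tub-3L G5P than in Tub-3L G5; the part of stage in these differences was not tested.

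Against the injected strain the values are a description, since w1118 is among the groups without driver. Tub-3L G1 minus w1118 was −2.05 for Smvt (SE 0.15), −1.36 for ninaD (SE 0.17), −1.12 for hgo (SE 0.15) and −0.41 for Ctr1B (SE 0.0835). Without Tub-3L G1 replicate 2 the difference of hgo was −0.893, under 2-fold. In this comparison 7.32% of all probe sets were called and 37.6% passed, 21.9% higher and 15.7% lower.

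Tub-3L G5 minus w1118 was −3.26 for ninaD, −1.97 for Ctr1B and −1.86 for Smvt. For hgo it was −0.28, and −0.44 after median centring of the arrays. In this comparison 21.7% of all probe sets were called and 57.7% passed, 32.2% higher and 25.5% lower. The comparisons that use Tub-3L G1, Tub-3L G5 or w1118 share arrays and are not independent of each other.

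**Figure D2:**
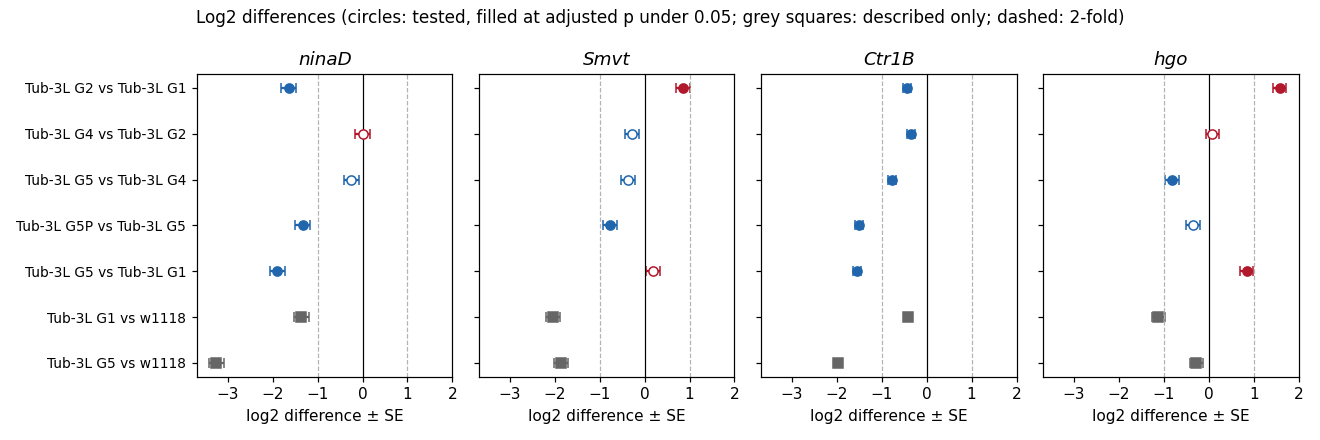
Log2 difference (horizontal axes) with its standard error for each of the 4 genes in 7 comparisons (rows), as circles where tested, filled where the limma adjusted p is under 0.05, and as grey squares against w1118, where no test is given, with dashed lines at 2-fold. Ctr1B is below 0 in every row, while hgo is above 0 in Tub-3L G2 vs G1 (1.58) and in Tub-3L G5 vs G1 (0.84) and below 0 against w1118.

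Signals of genes for the organs in which these 4 genes act are given beside the results. The 6 of 8 Malpighian tubule genes named on the array summed to 557 to 564 in Tub-3L G1, 541 to 561 at G2, 386 to 429 at G4, 398 to 404 at G5 and 364 to 390 at G5P, and to 693 to 717 in w1118. In Tub-3L G5 against G1, 4 of these 6 fell and 2 did not pass, where 26.9% of all probe sets fell. Of 37 midgut enzyme genes, 2 are named, with summed signals of 41.0 to 41.98 in Tub-3L G5, 76.5 to 82.8 in Tub-3L G1 and 121 to 137 in w1118. They are Ser6 and Ser12, both outside the rule for named genes. Ser12 was dim throughout, with log2 group means from 2.03 in Tub-3L G5 to 2.80 in w1118, so Ser6 leads the sum. The midgut sums were 84.6 to 95.0 in Tub-3L G2, 55.0 to 86.7 in Tub-3L G4 and 39.0 to 45.6 in Tub-3L G5P. The single named gene of 7 for the fat body, apolpp, read 2888 to 3028 in Tub-3L G5, 4205 to 4627 in Tub-3L G1 and 4901 to 5033 in w1118. It read 3170 to 3271 in Tub-3L G2, 3720 to 3907 in Tub-3L G4 and 2098 to 2605 in Tub-3L G5P. Without driver, the midgut sums were 89.7 to 90.7 in UAS-3L G1, 64.1 to 70.8 in UAS-3L G5 and 59.7 to 66.1 in UAS-3L* G20*. In the same order apolpp read 5043 to 5057, 3899 to 3948 and 3863 to 3906. The tubule sums were 569 to 586, 509 to 551 and 507 to 542. In both later groups ninaD, Smvt and hgo were also lower than in UAS-3L G1, and Ctr1B was higher. All these sums were lower in Tub-3L G5 than in w1118, as ninaD, Smvt and Ctr1B were. Their part in the differences was not tested.

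The stage list, 4 of 24 genes of the ecdysone response, summed to 1210 to 1280 in Tub-3L G5P, 942 to 1007 in Tub-3L G5, 908 to 1029 in Tub-3L G1 and 702 to 776 in w1118. The sum hides opposite changes. In Tub-3L G5 against G1 the nuclear receptors Hr38 and ftz-f1 rose, by 2.74 (limma adjusted p = 1.88e-07) and 1.70 (limma adjusted p = 7.1e-08), and Hr3 and the ecdysone receptor EcR fell, by 1.60 (limma adjusted p = 1.48e-06) and 1.19 (limma adjusted p = 7.71e-07). In Tub-3L G5P against G5, ftz-f1 rose by 0.65 (limma adjusted p = 0.000456), Hr38 fell by 0.66 (limma adjusted p = 0.015), and the other 2 did not pass. These 4 are outside the rule for named genes and were named after their values were seen. Their part in the differences was not tested either.

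Over the course from G1 to G5 the class B scavenger receptors moved in both directions. Of 14 listed, 5 are named on the array, and in Tub-3L G5 against G1 the other 4 divided into 3 that rose and 1 that fell, where 29.4% of all probe sets rose and 26.9% fell. Snmp2, a relative of the pheromone co-receptor Snmp1, was 2.59-fold higher (1.37, limma adjusted p = 4.4e-06). Snmp1 itself differed by 1.23 (limma adjusted p = 0.00501), but its Tub-3L G1 arrays were dim and far apart, at 4.82 and 3.73. Without Tub-3L G1 replicate 2 the difference was 0.69 and did not pass (limma adjusted p = 0.0616). The receptor emp of epithelial membranes rose by 0.84 (limma adjusted p = 2.26e-06). The list's median was 0.84, beside −0.01 over all probe sets.

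The one that fell was santa-maria, a receptor that acts with the cleavage enzyme ninaB in cells of the head. Its log2 group means along the Tub-3L generations were 8.84, 8.49, 7.72, 7.48 and 6.58 at G1, G2, G4, G5 and G5P, and 9.55 in UAS-3L* G20*, 9.68 in UAS-3L G5, 8.82 in UAS-3L G1 and 9.09 in w1118. In Tub-3L G5 against G1 it was 2.56-fold lower (−1.35, limma adjusted p = 2.05e-07), and in Tub-3L G5P against G5 it was 1.87-fold lower (−0.91, limma adjusted p = 1.72e-05). In G5P against G5, 4 of the 5 receptors fell, ninaD among them, and none rose, where 26.3% of all probe sets fell. One of the 4, Snmp2 (−0.52, limma adjusted p = 0.00855), did not pass without Tub-3L G5 replicate 2 (−0.44, limma adjusted p = 0.0655) or without Tub-3L G5P replicate 2 (−0.42, limma adjusted p = 0.0721). There emp differed by −1.01 (limma adjusted p = 1.35e-06), opposite to its sign in G5 against G1.

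The carotenoid and retinoid genes moved in both directions. Of 8 listed, 5 are named, and in Tub-3L G5 against G1 all 5 passed, 3 lower (ninaD, santa-maria and pinta) and 2 higher (Pdh and ninaB), with a median of −1.35. Over all probe sets 26.9% were lower and 29.4% higher there, with a median of −0.01. The gene pinta encodes a retinoid-binding protein of the eye's pigment cells. Its signals were 9.07 and 9.09 in Tub-3L G1, 8.02 and 8.08 at G2, 7.63 and 7.58 at G4, 7.13 and 6.98 at G5, and 7.14 and 7.07 at G5P. In G5 relative to G1 it fell by 2.03 (limma adjusted p = 2.11e-09). Unlike ninaD, pinta was higher in Tub-3L G1 than in w1118, by 1.66 (limma adjusted p = 6.23e-08).

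Pdh, a retinol dehydrogenase of pigment cells, and ninaB, which cleaves carotenoids to retinal, rose at the step where ninaD showed no difference. Pdh read 9.57 and 9.48 in Tub-3L G4, against 4.10 and 3.25 in Tub-3L G2 (5.85, SE 0.88, limma adjusted p = 0.00027), and 10.16 and 10.30 in Tub-3L G5. The G2 signals are dim, so the size of this difference is not exact. The w1118 arrays of Pdh were 7.03 and 2.96, so its level there is not settled. For ninaB, G4 exceeded G2 by 1.26 (limma adjusted p = 0.00535), at dim signals of 4.42 and 4.31 at G4, against 3.12 and 3.08 at G2.

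**Figure D3:**
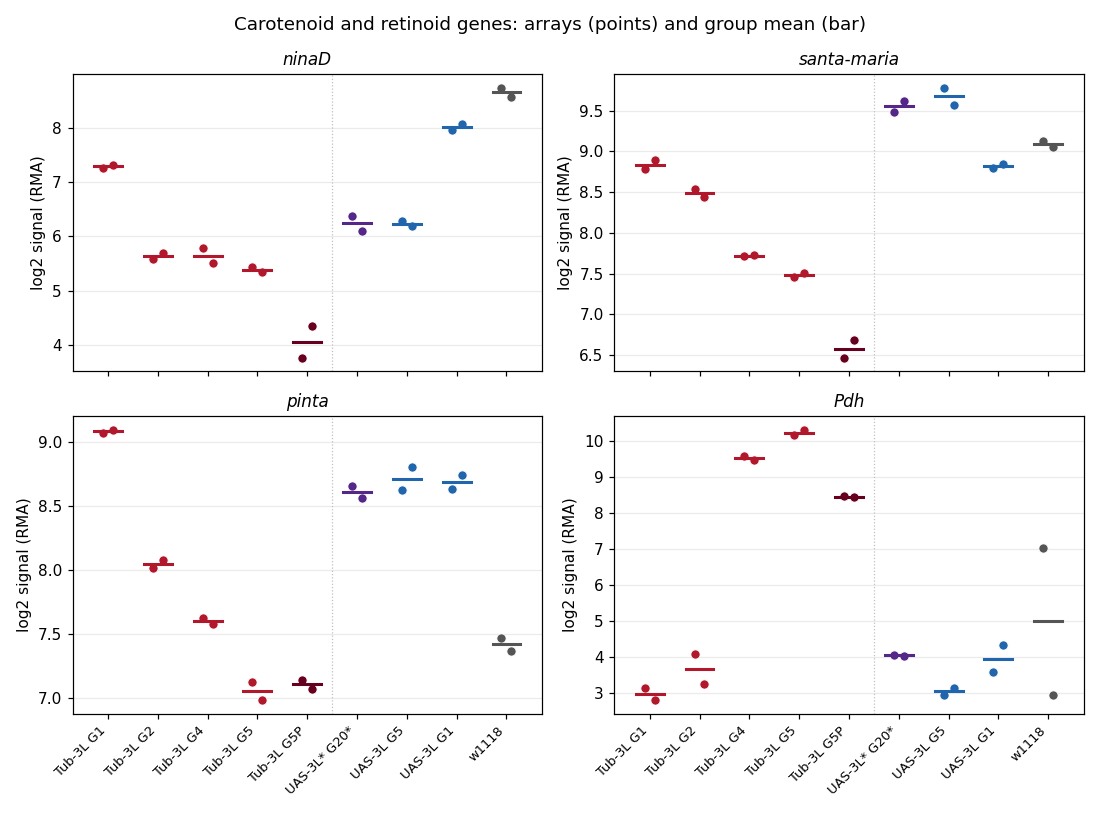
Log2 signal (vertical axes, RMA) of ninaD, santa-maria, pinta and Pdh on each array (points) with the group mean (bar). The ninaD and santa-maria signals are lowest in Tub-3L G5P, pinta steps down to 7.13 and 6.98 in Tub-3L G5, and Pdh is above 8.4 in Tub-3L G4, G5 and G5P while its 2 w1118 arrays stand at 7.03 and 2.96.

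Of 17 sodium-coupled symporters of the family of Smvt, Smvt alone is named on the array. Of 11 genes that use biotin, pantothenate or lipoate, 3 are named. Acetyl-CoA carboxylase, ACC, a biotin enzyme that starts fatty acid synthesis, read 6.46 and 6.50 in Tub-3L G1, 7.54 and 7.61 at G2, 8.47 and 8.46 at G4, 8.79 and 8.80 at G5 and 8.97 and 8.77 at G5P, and 8.76 and 8.82 in w1118. Both ACC and Smvt were higher in G2 than in G1 and lower in Tub-3L G1 than in w1118, but ACC rose again in G4 against G2 (0.90, limma adjusted p = 2.45e-05), where Smvt did not pass. ACC was 2.31 higher in G5 than in G1 (limma adjusted p = 1.65e-09) and differed by −2.31 in Tub-3L G1 against w1118 (limma adjusted p = 9.97e-09). Ppat-Dpck, of the pathway that makes coenzyme A from pantothenate, differed from w1118 by −0.97 in Tub-3L G1 (limma adjusted p = 4.79e-05) and by −1.13 in Tub-3L G5 (limma adjusted p = 4.54e-06). The third gene, Hcs, outside the rule for named genes, was higher in Tub-3L G1 than in w1118 (group means 6.67 and 6.12). There 2 of the 3 passed lower and 1 higher, where 15.7% of all probe sets were lower and 21.9% higher. In Tub-3L G5P against G5, where Smvt fell, 2 of the 3 passed higher and 0 lower, where 26.4% of all were higher.

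Over the course from G1 to G5 the other copper genes mostly differed in direction from Ctr1B. Of 18 listed, 10 are named, and in Tub-3L G5 against G1 the other 9 divided into 5 that rose, 1 that fell and 3 that did not pass, with a median of 0.57 over all 10. Over all probe sets 29.4% rose and 26.9% fell, with a median of −0.01. In Tub-3L G5 against G4 4 of the 9 fell, as Ctr1B did, and none rose, where 10.7% of all probe sets fell. In Tub-3L G1 against w1118, 5 of the 9 were lower and none higher, where 15.7% of all were lower. Ctr1A, the widely expressed copper importer, was looked up after its values were seen. It read 7.84 and 7.66 in Tub-3L G5 and 7.97 and 7.91 in Tub-3L G1 (−0.19, limma adjusted p = 0.146). In Tub-3L G5P, where Ctr1B was lowest, Ctr1A read 8.14 and 8.21, against 7.84 and 7.66 in Tub-3L G5 (0.43, limma adjusted p = 0.00474; 0.0509 without Tub-3L G5 replicate 2). Ctr1C, an importer of the male germline, had dim signals of 2.83 to 4.55 on the Tub-3L arrays. In Tub-3L G5P against Tub-3L G5 it differed by −1.05 (limma adjusted p = 0.00606), and by −0.87 without Tub-3L G5 replicate 1 (limma adjusted p = 0.0551).

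Of the metallothioneins, MtnB, MtnD and MtnE had their highest Tub-3L means in G4. MtnD read 7.91 and 7.86 in Tub-3L G1, 8.94 and 8.82 at G2, 10.46 and 10.44 at G4, 8.46 and 8.38 at G5 and 8.43 and 8.51 at G5P. It was 2.98-fold higher in G4 than in G2 (1.57, limma adjusted p = 1.05e-07), and 4.09-fold lower in G5 than in G4 (−2.03, limma adjusted p = 1.53e-08). MtnE differed by 2.21 in G4 against G2 (limma adjusted p = 4.64e-07) and by −1.76 in G5 against G4 (limma adjusted p = 5e-06). MtnB differed by 1.03 in G4 against G2 (limma adjusted p = 0.00326) and by −2.11 in G5 against G4 (limma adjusted p = 2.35e-05). The sizes for MtnE and MtnB are not exact, since MtnE read only 3.61 and 3.29 in G2 and 3.88 and 3.91 in G5, and MtnB only 3.73 and 3.22 in G5, which are dim signals.

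Metallothioneins are short genes of similar sequence, and cross-hybridisation among MtnB, MtnD and MtnE was not tested. At the step from G2 to G4, where these 3 rose, Ctr1B fell by 0.35. At the next step all 4 fell. In Tub-3L G1 against w1118 they were lower too, with differences of −1.48 for MtnB, −1.93 for MtnD and −1.39 for MtnE (limma adjusted p of 0.000251, 2.44e-08 and 2.74e-05), beside −0.41 for Ctr1B. Among the UAS-3L groups the directions differed, as Ctr1B was higher in both later groups than in UAS-3L G1. Group means of MtnD were 9.04 in UAS-3L G1, 8.30 in UAS-3L G5 and 8.18 in UAS-3L* G20*. In the same order they were 5.54, 4.81 and 4.42 for MtnB and, at dim signals, 4.09, 3.42 and 3.45 for MtnE. None of 16 listed zinc transporters is named on the array.

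**Figure D4:**
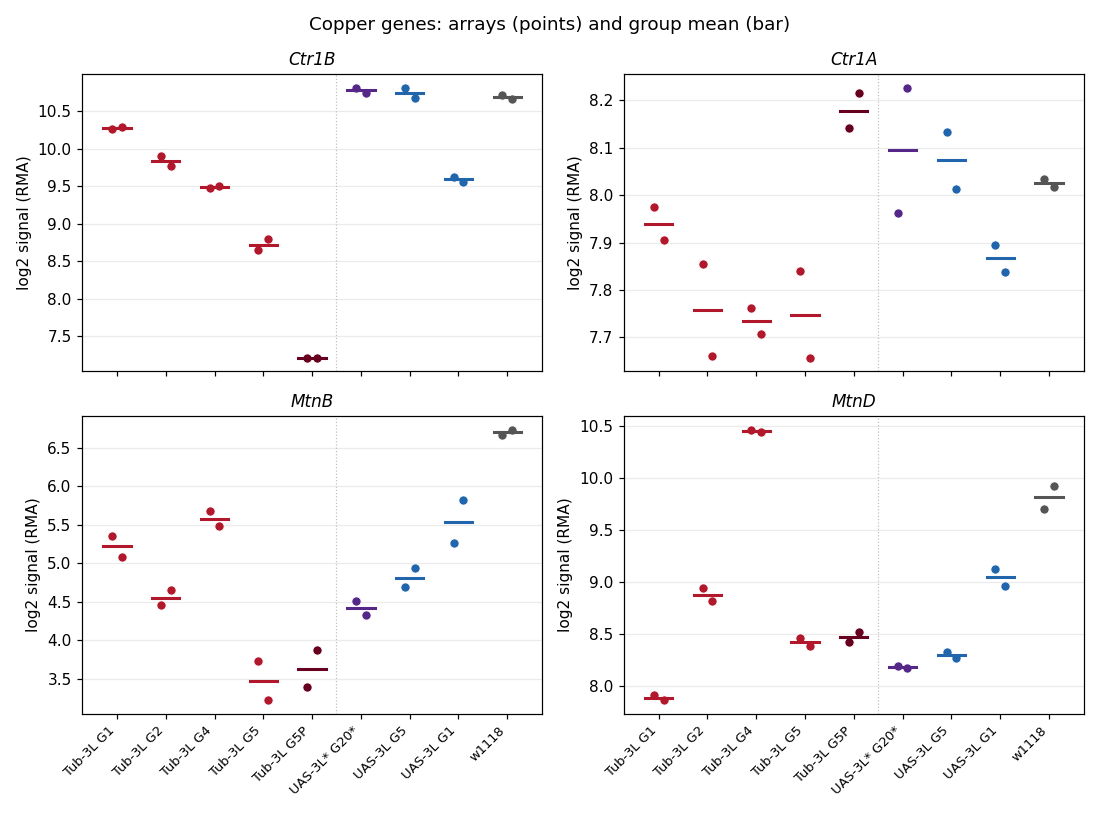
Log2 signal (vertical axes, RMA) of Ctr1B, Ctr1A, MtnB and MtnD on each array (points) with the group mean (bar). Ctr1B is lowest in Tub-3L G5P at 7.21, where Ctr1A reads 8.14 and 8.21, and MtnD is highest in Tub-3L G4 at 10.46 and 10.44.

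In tyrosine breakdown, Faa followed the early course of hgo. Of 9 listed genes, 4 are named: hgo, Faa, Pcd and Dhpr. Faa read 4.69 and 4.96 in Tub-3L G1, 6.98 and 6.94 at G2, 7.27 and 7.39 at G4, 6.97 and 7.01 at G5 and 6.45 and 6.71 at G5P. Without driver it read 4.73 and 4.72 in UAS-3L* G20*, 4.27 and 4.85 in UAS-3L G5, 4.95 and 5.40 in UAS-3L G1 and 6.15 and 6.70 in w1118. As with hgo, G2, G4, G5 and G5P of Tub-3L lay above Tub-3L G1, and UAS-3L* G20* and UAS-3L G5 were the lowest means.

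In Tub-3L G2 against G1, Faa was higher by 2.14 (SE 0.22, limma adjusted p = 1.87e-05), beside 1.58 for hgo. In Tub-3L G1 against w1118 both were lower, with differences of −1.60 for Faa (limma adjusted p = 0.000119) and −1.12 for hgo. At the step from G4 to G5, where hgo fell, Faa differed by −0.34 (limma adjusted p = 0.287).

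Dhpr, which regenerates the pterin cofactor of phenylalanine hydroxylase, ran opposite to hgo over the course. It read 7.04 and 7.16 in Tub-3L G5, against 8.57 and 8.51 in Tub-3L G1, and fell by 1.44 (limma adjusted p = 6.16e-09). Of the 4 named genes of this list, 2 rose and 2 fell in that comparison, where 29.4% of all probe sets rose and 26.9% fell. Ddc, the dopa decarboxylase that turns tyrosine products toward dopamine and cuticle, read 6.39 and 6.67 in Tub-3L G5, against 8.05 and 8.23 in Tub-3L G1. It fell by 1.61 (limma adjusted p = 5.23e-05), with 2 of the 3 named genes of tyrosine use falling and 1 rising. Hence hgo and Faa were higher, and Dhpr and Ddc lower, in Tub-3L G5 than in Tub-3L G1.

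**Figure D5:**
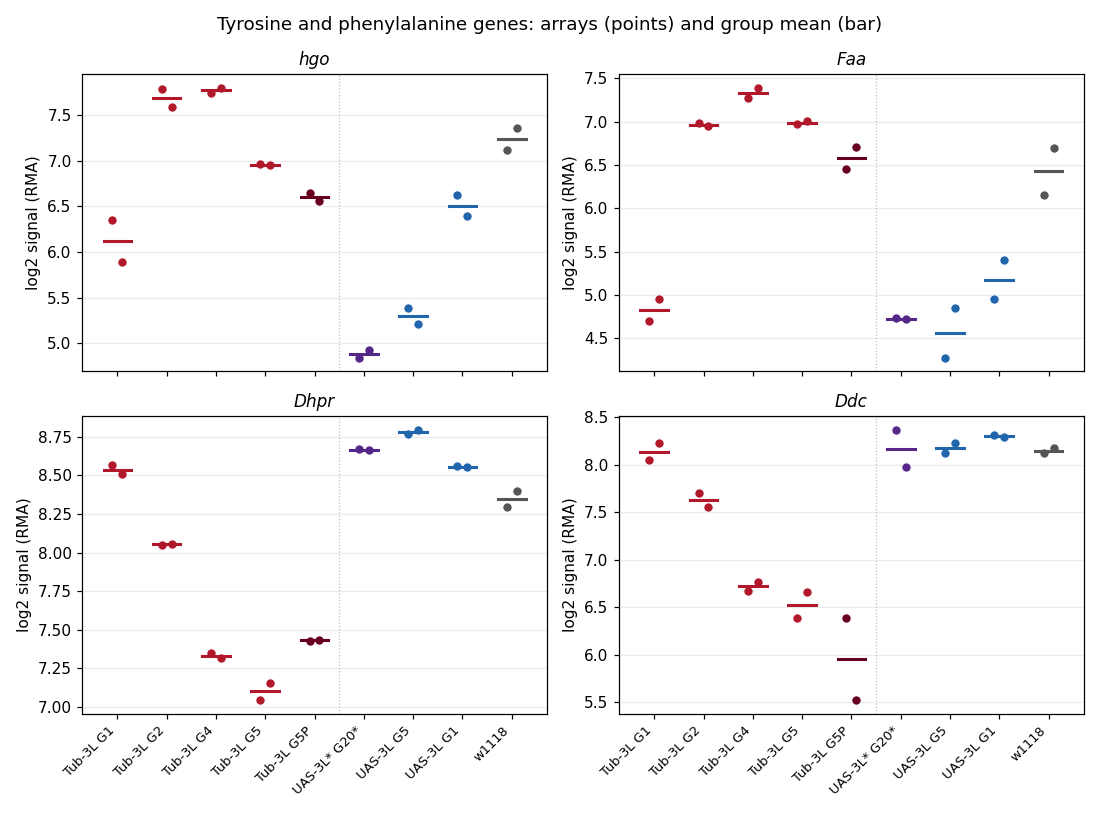
Log2 signal (vertical axes, RMA) of hgo, Faa, Dhpr and Ddc on each array (points) with the group mean (bar). In Tub-3L G2 hgo reads 7.79 and 7.59 and Faa 6.98 and 6.94, above their Tub-3L G1 arrays. Dhpr and Ddc decline from Tub-3L G1 to G5 and stay high in every group without driver. The mean of Dhpr is 7.10 in Tub-3L G5 and 7.43 in Tub-3L G5P.

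Among themselves the 4 genes had different patterns over the 9 group means. Pearson's r was 0.739 for ninaD with Smvt, 0.688 for ninaD with Ctr1B, 0.544 for Smvt with hgo and 0.316 for Smvt with Ctr1B. It was −0.0668 for ninaD with hgo and −0.357 for Ctr1B with hgo. These are descriptions over 9 points that share the same 18 arrays and differ in stage signals, and the 4 genes were picked together.

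The genes most like each in pattern were sought among 662 probe sets with 1 symbol and an SD of group means of at least 0.5. For ninaD they were Pxn (r = 0.941), the peroxidasin of blood cells and matrix, the cytochrome P450 Cyp4ac1 (0.928) and the glutathione transferase GstD6 (0.914). For Smvt they were the esterase alpha-Est2 (0.951), the trypsin kappaTry (0.949) and JhI-26 (0.921), named for its induction by juvenile hormone.

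For Ctr1B they were Gfat1 (0.971), the first enzyme of hexosamine synthesis, LKRSDH (0.966), of lysine breakdown, and tw (0.959), a protein mannosyltransferase. For hgo they were Faa (0.891), the P450 Cyp6a18 (0.875) and Gyg (0.858), the glycogen primer glycogenin. Faa, a gene of the same breakdown route, thus stood closest to hgo of all candidates. Each list holds the top of 662 ranked values over 9 group means, and no test was made of them.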

How the data were processed

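Whole larvae of the third instar were profiled on 18 arrays, 2 in each of 9 groups taken from the sample labels. The authors deposited log2 signals normalised by RMA per gene in Affymetrix Expression Console 1.3, and used the Transcriptome Analysis Console for their comparisons. RMA pulls the arrays to a common distribution, so a shift of all genes would not be seen. The deposited log2 values of 16322 probe sets were used unscaled and unfiltered. A table of group averages (9 columns) was not used, as its columns could not be tied to groups. The platform annotation gave 1 symbol to 2392 probe sets, updated through RefSeq, and 13930 have none here. No genome build is named for it, and no coordinates were used.

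With R 4.3.3 and limma 3.58.1, a mean per group was fitted to all 18 arrays (9 residual and 2.71 prior degrees of freedom), with Benjamini-Hochberg adjustment over all probe sets in each of 7 tested comparisons. For the 4 genes, the tests against w1118, planned at first, are not given, since w1118 is a group without driver. The script was tested on simulated data. SE values are of the log2 difference, on 2 arrays per group. An exact permutation test of 2 against 2 arrays cannot go below p = 0.333, and 2 arrays per group limit the precision. Figures were drawn with matplotlib 3.10.9.

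The members and the gene lists (13 lists, 48 of 191 genes named on the array) were chosen with earlier results of these data known. Named are the 4 members, the called genes of the pathway lists (at most 4 per list, by range of group means) and the 3 genes nearest each member in pattern. Where a symbol has several probe sets, the brightest on average was used. Alternatives were centring, quantile normalisation, omission of the dimmest 25% of probe sets, a prior with trend and robust variances, fits of 2 groups alone, the methods' t-test, no fold threshold, a replicate block and leaving out each array. A fit without the Tub-3L G5P arrays, and leaving out each array for the named genes of the lists, were added after seeing the data. Replicate numbers are names only: over 36 pairs of groups the correlation of replicate differences ran from −0.0643 to 0.0394, and 0 pairs exceeded 0.1.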

Additional observations from a re-analysis of the deposited data

Results flagged for a closer look

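For 3 of the 4 genes, the difference between larvae with and without driver had opposite signs in generations 1 and 5. Smvt in Tub-3L minus UAS-3L was −1.45 in generation 1 and 0.407 in generation 5 on the log2 scale. For Ctr1B this difference was 0.683 in generation 1 and −2.03 in generation 5. For hgo it was −0.387 in generation 1 and 1.66 in generation 5. In each case both Tub-3L arrays lay on one side of both UAS-3L arrays in generation 1 and on the other side in generation 5. The difference between generations was not tested, since the UAS-3L arrays took part in the choice of the genes. A shift between UAS-3L groups, for which the genes were picked, by itself moves this difference between generations. The share of all probe sets with such a turn of sign was not counted. The UAS-3L groups themselves differed between G5 and G1 by −1.66 for Smvt, 1.15 for Ctr1B and −1.21 for hgo.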

How the results depend on the processing

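In the 5 comparisons among Tub-3L groups, the number of the 4 genes called was within 1.5 times the reported one with centring, the robust prior and 2 groups alone. With quantile normalisation it was 1 in Tub-3L G5P against G5, since ninaD then differed by −0.96. The methods' t-test, which takes its spread from the 4 arrays compared, was also run with Benjamini-Hochberg adjustment. It called 0 genes in Tub-3L G2 against G1 and 1 in Tub-3L G5P against G5. With this adjustment ninaD and Ctr1B passed in Tub-3L G5 against G1, and Ctr1B in G5P against G5. No other difference of the 4 genes passed it. In G5 against G4, Ctr1B and hgo had t-test adjusted p of 0.0961 and 0.0592. In Tub-3L G5 against G1, hgo did not pass with or without adjustment (t-test p of 0.134 and 0.067). Without a fold threshold 4 genes passed in Tub-3L G2 against G1, 1 in G4 against G2 and 2 in G5 against G4.

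Over all probe sets that t-test called 25 in Tub-3L G2 against G1, 520 in G4 against G2, 49 in G5 against G4, 1090 in G5P against G5, 132 in Tub-3L G1 against w1118 and 2358 in Tub-3L G5 against w1118, where limma called 834, 1595, 761, 2183, 1194 and 3544. Without a fold threshold 5362, 5617, 4019, 8595, 6137 and 9415 passed in the same order, and 9184 in Tub-3L G5 against G1.

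The difference of ninaD in Tub-3L G4 against G2, near 0, turned to −0.034 with centring and −0.053 with quantile normalisation, and ran from −0.126 to 0.139 with 1 array left out. That of hgo ran from −0.017 to 0.182. Centring moved all log2 differences by 0.13 in Tub-3L G5P against G5 and by −0.16 in Tub-3L G5 against w1118, where hgo then differed by −0.44. With 2 groups alone, Ctr1B no longer passed in Tub-3L G2 against G1 and G4 against G2 (limma adjusted p of 0.053 and 0.0532). Without Tub-3L G2 replicate 1 it did not pass in G4 against G2 (0.0678). The difference of hgo in Tub-3L G5P against G5 passed with 2 groups alone (0.0365). For 17 named genes of the lists, 476 values were refitted with 1 array left out, among them values that had not passed with all arrays. Of the values that had passed, 7 moved over 1.5 times and many more no longer passed.

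With 1 array left out, the lone array of a group is assumed to vary like the other groups. In Tub-3L G5 against G1, hgo differed by 1.069 without Tub-3L G1 replicate 1 and by 0.611 without Tub-3L G1 replicate 2. With a replicate block, 830 probe sets and 2 of the 4 genes were called in Tub-3L G2 against G1. No call of the 4 genes changed with it in any comparison among Tub-3L groups.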
